A study of Mus musculus with 4 samples.

Results

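The lipid transport and storage genes described here are Apoe, Apoc1, Apoc2, Abca1, Abcg1, Pltp, Lpl, Fabp5, Plin2 and Nr1h3, 10 of the 28692 genes in the table of unique molecular identifier (UMI) counts. They were chosen by name, as genes that move lipid between macrophages and lipoproteins or store it in the cell. All 10 were found under their symbols, and they were described over the 4771 of 6954 barcodes that held at least 1000 UMIs. The cells came from the lamina propria of the colon of 4 male C57/Bl6N mice and were sorted as monocytes and macrophages, that is, CD11b+ and either Ly6C+ or CD64+. The mice DEP 11 and DEP 13 had received diesel exhaust particles by gavage, 12 µg in 200 µL of PBS each time, 5 days weekly over some 6 months, and the mice PBS 2 and PBS 3 had received PBS alone on the same schedule. Each mouse was 1 well of a 10x Genomics 3′ run, so a group held 2 mice. A p-value between DEP and PBS measures the spread between 4 mice only. Between classes of barcodes, described below, the mouse was a block. Such a p-value measures how far the class difference varied within the same 4 mice.

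Macrophages take up lipid with dying cells and lipoproteins, hydrolyze it in lysosomes, and either store it in droplets or hand it back to lipoproteins. The liver X receptor LXRα, encoded by Nr1h3, is a nuclear receptor that senses oxysterols and, paired with a retinoid X receptor, switches on export genes such as Abca1, Abcg1, Apoe and Pltp. In the colon, Ly6C+ monocytes enter the lamina propria and mature there into macrophages that make complement C1q, so that Ly6c2 and C1qa mark the early and late ends of that path.

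Barcodes were classed by these markers. A barcode was called high for Ly6c2 or C1qa at 5 or more UMIs per 10000, which gave 125 Ly6c2-high, 504 double-high, 3865 C1qa-high and 277 double-low barcodes. C1qa UMIs were also found in most other barcodes, and the C1qa level had a trough between its modes near 20, so a second set of classes with a C1qa limit of 20 was added after the data were seen. It held 555 Ly6c2-high barcodes (65 to 172 per mouse) and 2761 C1qa-high barcodes (398 to 888 per mouse). Near these limits, within a factor of 2 on either side, lay 20.3% of barcodes for C1qa at 5, 31.0% for C1qa at 20 and 14.9% for Ly6c2. The classes are ranges of marker level and not cell types. Total UMIs per mouse were 4357153 to 10063287 in 675 to 1582 barcodes, 36 barcode words occurred in more than 1 mouse, and all 15 monocyte and macrophage markers had UMIs in every mouse. Levels are given as CPM, the UMIs of a gene scaled to a total of 1000000 UMIs, summed over the barcodes of a class in a mouse, and 4 values given in a row are those of DEP 11, DEP 13, PBS 2 and PBS 3. A 3′ UMI count is not divided by transcript length, so levels are compared between classes and mice of 1 gene and never between genes.

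The promoters of 3 members that rose toward the C1qa-high end are shown first, since export genes are textbook LXR targets. RefSeq (GRCm38.p6, the mm10 build) gave a start site for 6 of the 10 members, and the 250 bases before the start of Apoe (chr7:19699189-19699438, minus strand), Pltp (chr2:164857709-164857958, minus strand) and Abca1 (chr4:53159896-53160145, minus strand) read, 5′ to 3′:

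Apoe: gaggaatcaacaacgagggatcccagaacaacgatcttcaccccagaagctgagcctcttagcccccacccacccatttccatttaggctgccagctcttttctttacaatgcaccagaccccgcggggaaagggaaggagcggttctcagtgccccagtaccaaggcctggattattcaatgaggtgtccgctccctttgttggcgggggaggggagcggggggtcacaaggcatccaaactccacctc

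Pltp: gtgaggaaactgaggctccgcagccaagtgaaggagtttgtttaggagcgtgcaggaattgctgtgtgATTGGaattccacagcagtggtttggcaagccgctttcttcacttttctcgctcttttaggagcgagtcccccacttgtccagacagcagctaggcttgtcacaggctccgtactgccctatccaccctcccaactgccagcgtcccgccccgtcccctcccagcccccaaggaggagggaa

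Abca1: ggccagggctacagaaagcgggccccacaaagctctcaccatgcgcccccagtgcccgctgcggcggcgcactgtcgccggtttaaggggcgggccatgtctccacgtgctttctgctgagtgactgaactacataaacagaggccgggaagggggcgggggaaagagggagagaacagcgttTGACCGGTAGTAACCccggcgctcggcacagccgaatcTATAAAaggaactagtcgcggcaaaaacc

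Capitals mark matches, on either strand, to 7 motifs that were searched in every such window. In Abca1 they are an LXR-type direct repeat (GGTNA, then NNNNN, then GGTNA, read here on the opposite strand) that begins 67 bases before the start and a TATA box (TATAAA) that begins 29 bases before it. The LXR-type letters occurred in 204 of 32851 promoters, or 0.621%, and TATAAA in 12.4%. In Pltp the only match was a CCAAT box (CCAAT, on the opposite strand), which 33.8% of promoters hold, and the window shown for Apoe held none of the 7. RefSeq lists 3 start sites for Apoe, of which the outermost is shown, and the window of the second held 2 TATAAA matches, 100 and 96 bases before that start. The other motifs searched were GAGGAAG for PU.1-type factors, in 10.6% of promoters, TGANTCA for AP-1, in 6.75%, AGGNCA, N and AGGNCA for PPAR-type receptors, in 0.338%, and TCACGTGA, the CLEAR box of lysosomal genes, in 0.785%. Among the members not shown, the window of Apoc2 held a PPAR-type match 122 bases before the start, that of Plin2 held a CCAAT box, and both windows of Nr1h3 held none. A match is a description of letters and not of binding.

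Apoe, which encodes apolipoprotein E, the lipoprotein component that macrophages secrete to carry cholesterol away, lies at chr7:19696109-19699188 (minus strand, mm10) beside Apoc1 and Apoc2. Its UMIs were found in every barcode, 868284 in all. In Ly6c2-high barcodes its level was 10926, 9294, 14769 and 8325 CPM, and in C1qa-high barcodes it was 31436, 28464, 34149 and 26347 CPM. The classes did not overlap, and within each mouse the C1qa-high level was the higher one. Apoe rose by 1.64 ± 0.07 (log2 fold change ± SE, adjusted p = 1.97e-23, edgeR quasi-likelihood test with mouse as a block), and by 1.70 ± 0.05 (adjusted p = 8.05e-16) with the C1qa limit of 20.

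Apoe UMIs were also found in barcodes of very low depth and in barcodes with lymphoid markers. Barcodes under 500 UMIs, of which there were 1614, held 9483 ± 2118 CPM of Apoe (SD, n = 4), and 41 double-low barcodes with T, B or plasma cell markers held 9228 ± 3416. The Ly6c2-high level at the limit of 20 was 10559 ± 2463, and the C1qa-high level 35092 ± 3280. By mouse the Ly6c2-high level was 11011, 8104, 13793 and 9328 CPM, against 8730, 7776, 12577 and 8847 CPM in the barcodes under 500 UMIs, higher in 4 of 4 mice. After each barcode was thinned to 1000 UMIs, every barcode of both classes still held Apoe, with a mean of 11.4 UMIs in Ly6c2-high, 34.2 in C1qa-high and 7.78 in the lymphoid double-low barcodes. How much of the Ly6c2-high level came from the cells themselves was not tested.

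Pltp encodes phospholipid transfer protein, which moves phospholipid between lipoproteins, and lies at chr2:164839518-164857711 (minus strand). Ly6c2-high barcodes held 120.0, 70.2, 115.8 and 76.5 CPM, and C1qa-high barcodes 327.3, 283.7, 386.3 and 239.2. As for Apoe, every C1qa-high value was above every Ly6c2-high value. Pltp rose by 1.75 ± 0.16 (adjusted p = 1.32e-11), and at the limit of 20 by 1.76 ± 0.09 (adjusted p = 8.41e-12), from 99.5 ± 22.0 to 353.4 ± 69.8 CPM. Its share of thinned barcodes with a UMI was 9.01% (exact 95% interval 6.76 to 11.7) in Ly6c2-high and 27.4% (25.8 to 29.1) in C1qa-high barcodes, against 12.2% (4.08 to 26.2) in the 41 lymphoid ones. Without thinning the shares were 34.4% and 74.7%, at median depths of 4876 and 7126 UMIs, and 31.7% at 3939 UMIs in the lymphoid barcodes, so the Ly6c2-high share did not stand above that of the lymphoid barcodes beyond counting error.

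Abca1 encodes the transporter that loads cholesterol and phospholipid onto lipid-poor apolipoprotein A-I, the first step of reverse cholesterol transport, and spans chr4:53030787-53159895 (minus strand). Only 4 UMIs fell in Ly6c2-high barcodes, as 4.14, 20.1, 11.6 and 0 CPM. C1qa-high barcodes held 33.0, 39.9, 26.1 and 28.9 CPM, above all Ly6c2-high values. Abca1 rose by 2.22 ± 0.56 (adjusted p = 0.004), a call that was lost without DEP 11 (1.79, adjusted p = 0.12). At the limit of 20, where the Ly6c2-high class held 19 UMIs, it rose by 2.40 ± 0.25 (adjusted p = 3.53e-07), from 7.60 ± 4.26 to 37.7 ± 6.78 CPM, and no mouse decided the call.

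For Abca1 the background ran the other way. Barcodes under 500 UMIs held 65.5 ± 24.6 CPM on 31 UMIs, more than either class, and the 41 lymphoid barcodes held 1 UMI. The share of thinned barcodes with an Abca1 UMI was 0.36% (exact interval 0.0437 to 1.30) in Ly6c2-high barcodes at the limit of 20, 3.98% (3.29 to 4.78) in C1qa-high barcodes and 0 of 41 in the lymphoid ones, which allows a share of up to 7.32% (3 of 41), the exact upper bound being 8.60%. Intervals and limits of this kind cover counting error only.

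Nr1h3, the gene of LXRα itself, lies at chr2:91184061-91202834 (minus strand). It had 2 UMIs in the Ly6c2-high class, with 4.14 CPM in DEP 11, 10.0 in DEP 13 and none in PBS 2 and PBS 3. The C1qa-high values were 24.1, 14.3, 21.6 and 17.5 CPM, and the ratio of the pooled levels was 5.29 (exact counting interval 1.46 to 43.8). The fit called it higher (2.58 ± 0.79, adjusted p = 0.0212), but the call was lost without DEP 11 (adjusted p = 0.187), without PBS 2 (adjusted p = 0.0687) and without PBS 3 (adjusted p = 0.0685). With the limit of 20 and 20 UMIs in the Ly6c2-high class, Nr1h3 rose by 1.66 ± 0.30 (adjusted p = 0.000216), from 7.57 ± 3.68 to 21.7 ± 5.87 CPM, and was higher in 4 of 4 mice. DEP 13 showed the smallest step, from 10.8 to 14.3 CPM. Barcodes under 500 UMIs held 12.2, 16.1, 8.22 and 0 CPM of Nr1h3 on 4 UMIs in all. These levels were above the Ly6c2-high level at the limit of 20 in DEP 11, DEP 13 and PBS 2, and in DEP 13 above the C1qa-high level too.

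Abcg1, the transporter that passes cholesterol to mature high-density lipoprotein (chr17:31057675-31117988, plus strand), did not follow Abca1. Its Ly6c2-high levels of 8.28, 30.1, 11.6 and 28.7 CPM overlapped the C1qa-high levels of 24.7, 20.9, 17.4 and 18.2 CPM. With the limit of 20 the class means were 18.7 ± 4.92 and 20.4 ± 2.79 CPM, and the difference was 0.01 ± 0.21 on the log2 scale, with an interval of 2 SE from −0.41 to 0.43 (adjusted p = 0.987). The interval of Abca1 in the same fit, 1.89 to 2.90, did not overlap it, and the difference between the transporters was not tested.

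**Figure D1:**
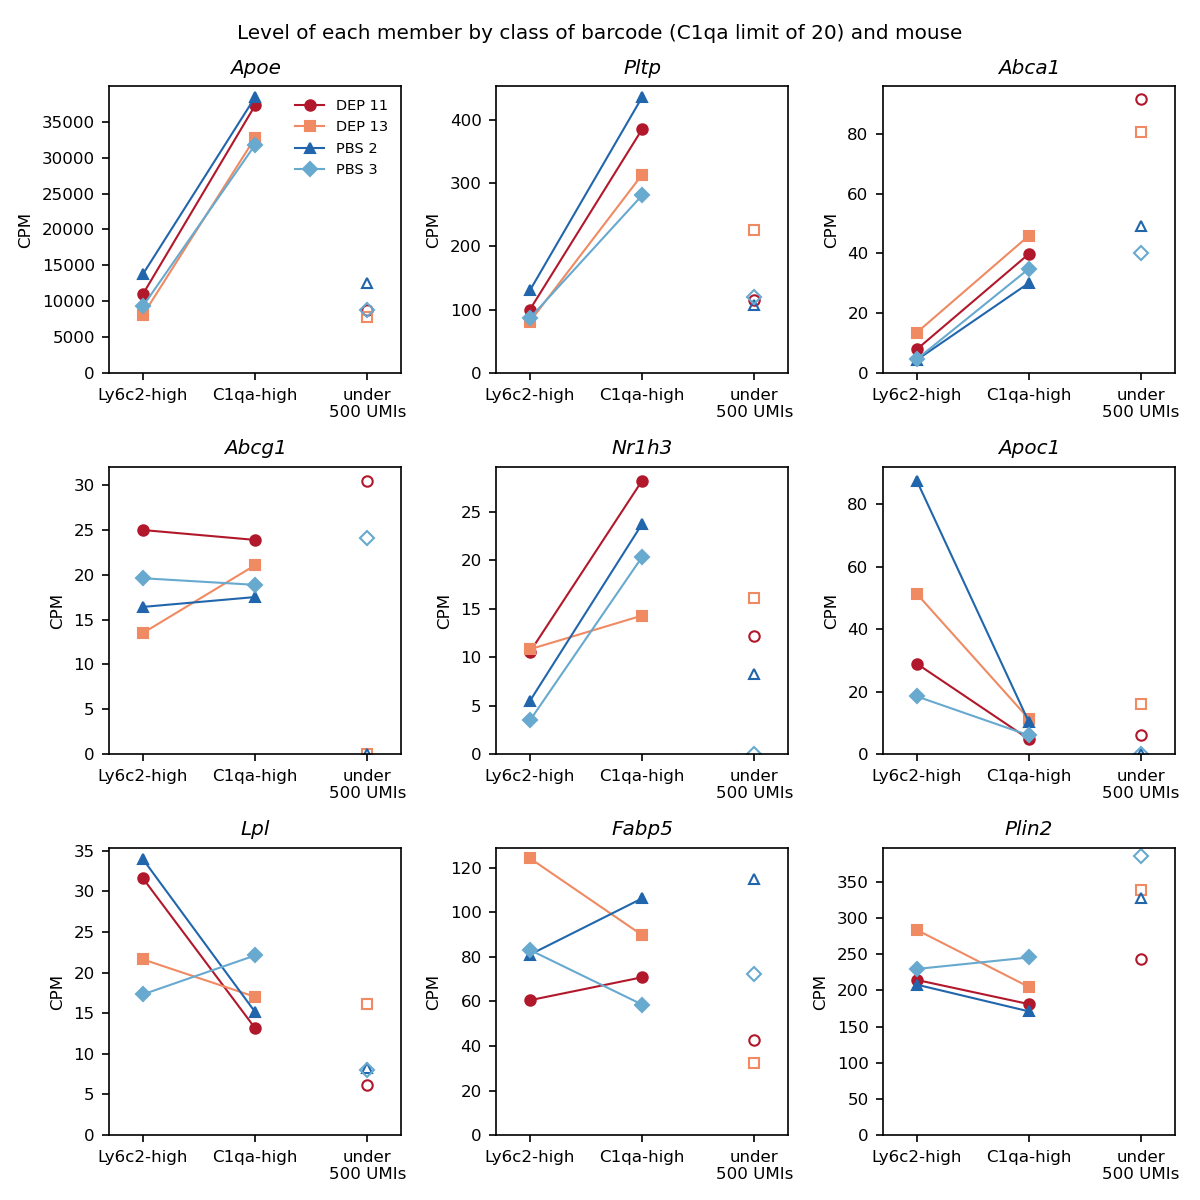
Level in CPM (y axis) of 9 members in Ly6c2-high and C1qa-high barcodes at the C1qa limit of 20, with 1 line for each of the 4 mice, and, as open markers, in barcodes under 500 UMIs. Apoe, Pltp, Abca1 and Nr1h3 go up in all 4 mice, Apoc1 goes down in all 4, and Abca1 and Plin2 are higher in the barcodes under 500 UMIs than in either class in all 4 mice.

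Apoc1 went the opposite way to its neighbor Apoe. Apolipoprotein C-I, its product, is a small exchangeable apolipoprotein, and the gene lies 3449 bases from Apoe at chr7:19689481-19692660 on the same strand. In Ly6c2-high barcodes it had 20.7, 140.4, 104.3 and 0 CPM, against 10.5, 15.1, 20.4 and 10.9 CPM in C1qa-high barcodes. Apoc1 fell by 1.90 on the log2 scale (SE 0.44, adjusted p = 0.00154), but 11 of the 14 UMIs of DEP 13 and 8 of the 9 of PBS 2 came from 1 barcode each, and the call was lost without DEP 13 (−1.27, adjusted p = 0.138).

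With the limit of 20, Apoc1 had 29.0, 51.4, 87.6 and 18.5 CPM in Ly6c2-high barcodes and 4.74, 11.2, 10.2 and 5.97 in C1qa-high barcodes, with no overlap and the fall in 4 of 4 mice. The difference was −2.60 ± 0.22 (adjusted p = 2.2e-08), and the call was kept without each mouse and without the barcodes that carried lymphoid markers (−2.72). The share of thinned barcodes with an Apoc1 UMI was 4.14% (exact interval 2.64 to 6.15) in Ly6c2-high and 0.797% (0.5 to 1.2) in C1qa-high barcodes. In barcodes under 500 UMIs the Apoc1 levels were 6.11, 16.1, 0 and 0 CPM, on 1, 1, 0 and 0 UMIs. With 3 counts as the floor, levels under 18.3, 48.4, 24.6 and 24.2 CPM could not be resolved there. The floor of PBS 3 lay above its Ly6c2-high level of 18.5 CPM, so a lower background was not shown in each mouse.

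Apoc2, the apolipoprotein that activates lipoprotein lipase (chr7:19671579-19677941, minus strand), was nearly silent. It had 15 UMIs in 15 barcodes, with 0.546, 0.459, 0.398 and 0.518 CPM, and did not pass the filter on low genes. Fitted with no filter, it was not called in any of the 7 comparisons at the limit of 5 (C1qa-high against Ly6c2-high −1.90 ± 2.26, adjusted p = 0.961). Apoc4, which lies next to it on the same strand, had 161 UMIs.

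Lpl encodes lipoprotein lipase, which releases fatty acids from triglyceride-rich lipoproteins, and lies at chr8:68880491-68907448 (plus strand). Its Ly6c2-high levels were 41.4, 20.1, 92.7 and 9.56 CPM on 21 UMIs, and its C1qa-high levels 14.3, 16, 14.6 and 23.8. The values overlapped, since PBS 3 went against the other mice, and the difference of −1.12 ± 0.42 did not pass (adjusted p = 0.0757). With the limit of 20 Lpl fell by 0.72 on the log2 scale (SE 0.24, adjusted p = 0.027), from 26.1 ± 7.94 to 16.9 ± 3.85 CPM, in 3 of 4 mice, and the call was lost without DEP 11 (adjusted p = 0.2) and without PBS 2 (adjusted p = 0.206).

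Plin2 encodes perilipin 2, the coat protein of lipid droplets in most cells (chr4:86648386-86670060, minus strand). Its levels were 219.3, 381.0, 266.4 and 143.4 CPM in Ly6c2-high barcodes and 176.8, 197.4, 176.7 and 244.3 in C1qa-high ones, a difference of −0.20 ± 0.16 (adjusted p = 0.517). The means at the limit of 20 were 234.1 ± 34.4 and 200.7 ± 33.2 CPM, and the difference of −0.27 ± 0.09 passed (adjusted p = 0.0224) but not without DEP 11 (adjusted p = 0.0742) or DEP 13 (adjusted p = 0.114). Barcodes under 500 UMIs held more Plin2 than either class, 324.5 ± 59.2 CPM.

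Fabp5 encodes a fatty acid-binding protein of the cytosol (chr3:10012548-10016607, plus strand). Its levels of 62.1, 330.9, 57.9 and 57.4 CPM in Ly6c2-high and 83.0, 88.8, 120.7 and 76.2 in C1qa-high barcodes differed by −0.22 ± 0.29 (adjusted p = 0.739), and at the limit of 20 by −0.11 ± 0.15 (adjusted p = 0.64). The high value of DEP 13 was mostly 1 barcode, which held 24 of the 33 Fabp5 UMIs in that class and also had UMIs for 3 plasma cell markers and 1 B cell marker.

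Counted together, 5 of the 9 members tested passed in this comparison at the limit of 5, 4 of them higher and 1 lower, where 13.5% of the 6666 genes tested passed, 7.32% higher and 6.18% lower. The median log2 difference was 0.45 over the 9 members and 0.10 over all genes tested. At the limit of 20, 7 of 9 passed, 4 higher and 3 lower, where 33.0% of the 6887 genes tested passed, 16% higher and 16.9% lower, and the medians were 0.01 over the members and 0.02 over all genes. The same 4 members, Apoe, Pltp, Abca1 and Nr1h3, were higher under both limits. The filter of a UMI in at least 5% of barcodes was applied to the compared classes together. In Ly6c2-high barcodes Abca1 and Nr1h3 had a UMI in 3.2% and 1.6% at the limit of 5, and in 3.24% and 3.06% at 20. They passed the filter through the C1qa-high class, where they were higher. Apoc1 at the limit of 20, in 3.98% of C1qa-high barcodes, passed through the Ly6c2-high class. These calls are a description only.

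**Figure D2:**
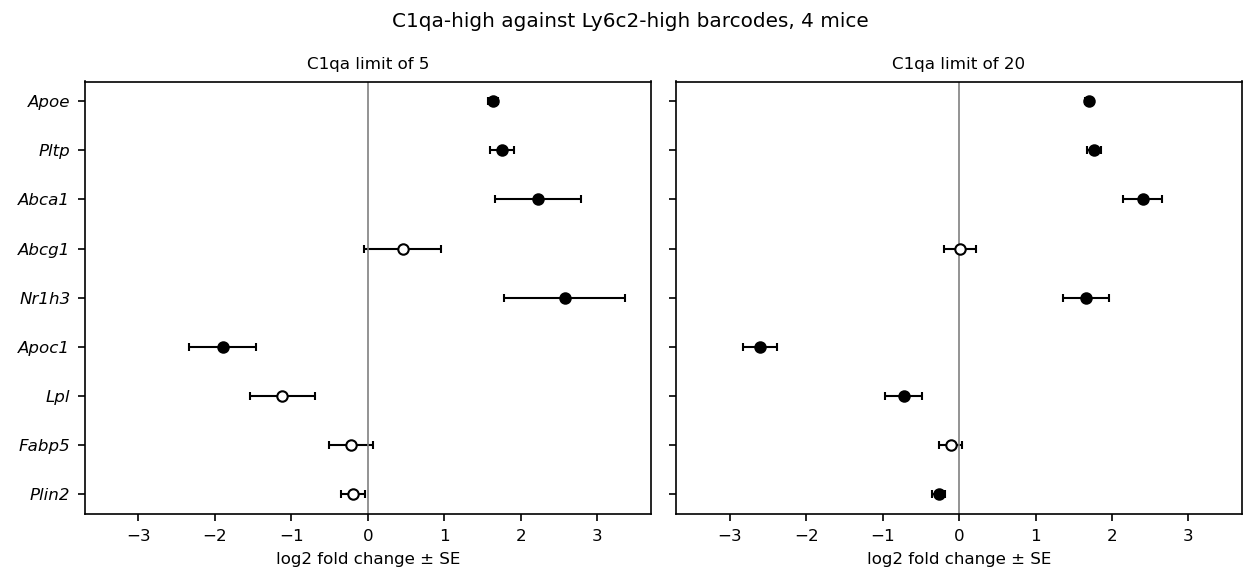
Log2 fold change (x axis, points, with SE as bars) of C1qa-high against Ly6c2-high barcodes for the 9 members tested, at a C1qa limit of 5 (left) and of 20 (right), over 4 mice. Filled points pass an FDR of 5% in edgeR. Apoe and Pltp lie between 1.64 and 1.76 in both panels, Abcg1 and Fabp5 are open in both, and Apoc1 lies at −1.90 and −2.60.

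Plasma cell transcripts moved with the classes. The summed level of the 6 plasma cell markers, immunoglobulin genes among them, was 7559 to 42205 CPM in the Ly6c2-high barcodes of the 4 mice at the limit of 20 and 1340 to 6360 CPM in the C1qa-high ones. All 7 member calls at that limit were kept when the 694 barcodes with at least 3 markers of a lymphoid list were left out. T cell markers summed to at most 67.1 CPM and neutrophil and mast cell markers to at most 4.62 CPM in these classes.

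The double-high barcodes, which are high for both markers at the limit of 5, sat next to the Ly6c2-high end. There were 504 of them at that limit and 74 at the C1qa limit of 20, so most lay between the C1qa limits. Only Apoe passed between double-high and Ly6c2-high barcodes (0.29 ± 0.06, adjusted p = 0.00885), where 0.795% of 6666 genes passed, and that call was lost with DESeq2 (adjusted p = 0.324) and without DEP 11 (adjusted p = 0.0832) or PBS 3 (adjusted p = 0.438). Between C1qa-high and double-high barcodes, where 23.6% of genes passed, 11% higher and 12.6% lower, Apoe (1.35 ± 0.06), Pltp (1.41 ± 0.10), Abca1 (1.84 ± 0.27) and Nr1h3 (1.21 ± 0.31) rose and Apoc1 fell (−1.62 ± 0.24), the last with an adjusted p of 5.91e-07. Nr1h3 was lost there without PBS 2 (adjusted p = 0.108).

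Along C1qa alone, pooled over the mice, the 4 members that were higher in C1qa-high barcodes had higher levels in the bin of 20 to 50 UMIs per 10000 than in the bins below it. Apoe was at 10734 CPM in barcodes above 0 and under 5, at 12271 from 5 to 20, at 26154 from 20 to 50 and at 40159 at 50 or more, so it climbed as far again in the last step. Pltp went through 122.9, 136.0, 312.0 and 382.8 CPM, and Abca1 through 9.94, 9.86, 27.4 and 40.1. Nr1h3 went from 6.39 CPM on 9 UMIs to 10.1 and 22.2 CPM, and was at 22.2 in the last bin.

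Apoc1 ran down these bins from 56.1 CPM to 39.8, 13.8 and 5.89, in the same order in each mouse. The 117 barcodes with no C1qa UMI, left out of this series, held 3 Apoc1 UMIs (9.88 CPM), below the bin next to them. Lpl did not follow the order, with 23.4, 20.8, 26.3 and 11.6 CPM, and its level from 20 to 50 rested on PBS 3 and PBS 2. Abcg1, at 19.5, 19.8 and 19.7 CPM in the last 3 bins, and Plin2, at 207.8, 203.5 and 198.9, were level there. Fabp5 was lower at 50 or more, at 70.3 CPM, than from 20 to 50, at 103.9.

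**Figure D3:**
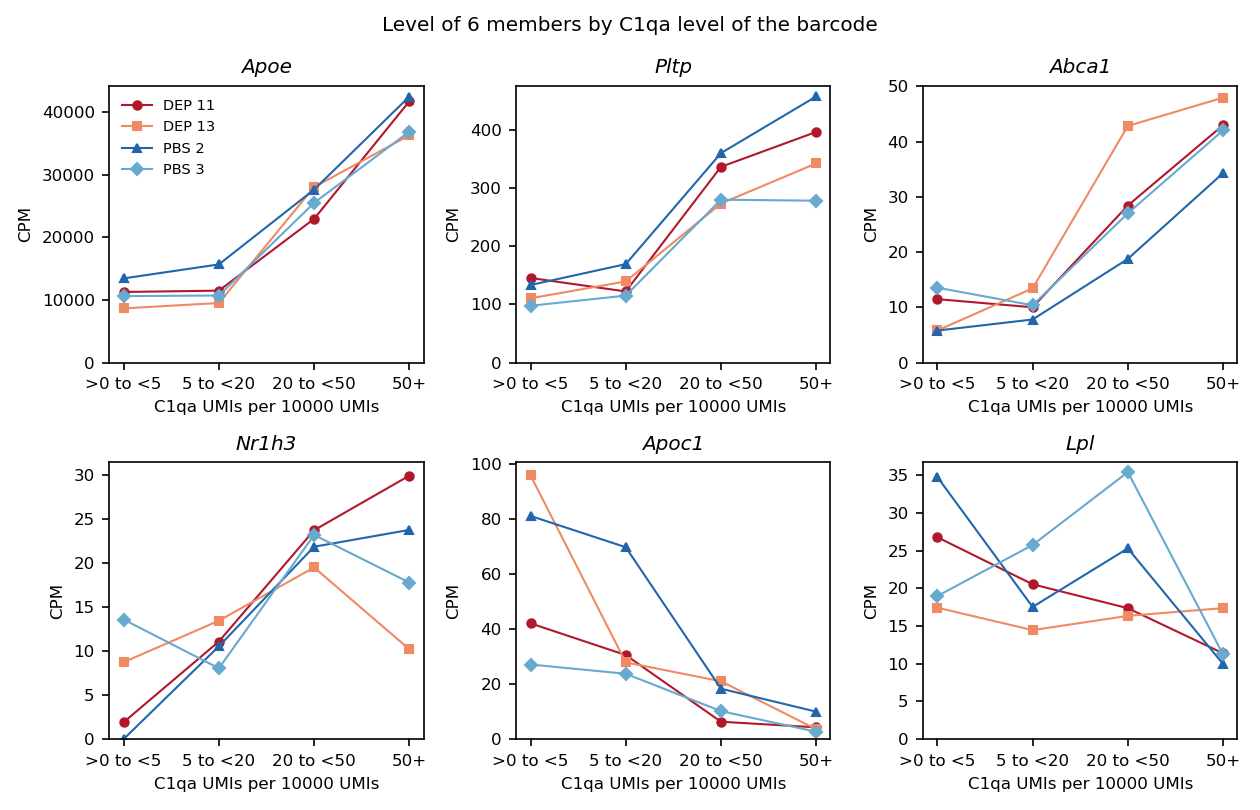
Level in CPM (y axis) of 6 members over 4 bins of the barcode's C1qa level (x axis, UMIs per 10000 UMIs), with 1 line per mouse. Apoe, Pltp and Abca1 step up from the bin of 5 to 20 to the bin of 20 to 50 in all 4 mice, Nr1h3 does so as well and parts by mouse in the last bin, and Apoc1 runs down.

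The members also differed in how many barcodes carried them. Apoc1, Abcg1, Lpl and Nr1h3 had similar totals of 603, 606, 572 and 569 UMIs, so their spread was compared as it stands, pooled over the mice. PBS 2 alone held 285, 170, 161 and 196 of these UMIs, and the spread within each mouse was not tested. The richest 51 barcodes held 50% of the Apoc1 UMIs and the richest 62 those of Lpl, against 153 for Nr1h3 and 235 for Abcg1. The 10 richest barcodes held 23.2% of Apoc1, 21.5% of Lpl, 10.0% of Nr1h3 and 5.28% of Abcg1. Fabp5, with 2936 UMIs, had 50% of them in 167 barcodes and 14.8% in 10, while Abca1, with 854 UMIs, had 50% in 274 barcodes and 4.22% in 10. Pltp, Plin2 and Apoe had 3.05%, 2.55% and 1.61% of their UMIs in their 10 richest barcodes.

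**Figure D4:**
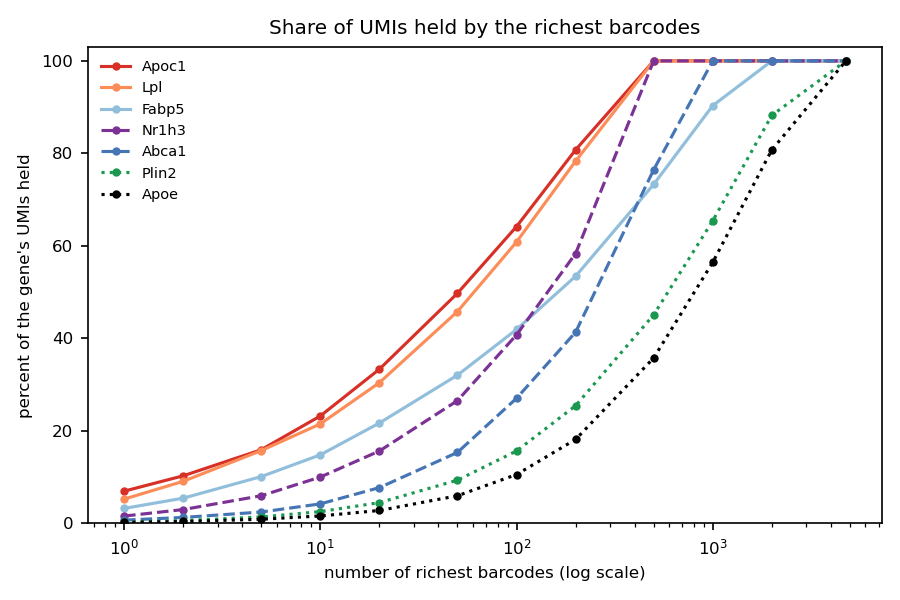
Percent of a gene's UMIs (y axis) held by its richest barcodes (x axis, number of barcodes on a log scale, of 4771) for 7 members, each line being 1 gene over all mice. Apoc1 and Lpl climb first, with 64.2% and 60.8% of their UMIs in 100 barcodes, and Apoe climbs last, with 10.6%.

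Barcodes rich in a member were described after its values had been seen, so no test is given. The 99 barcodes with 5 or more Fabp5 UMIs, 17 to 39 per mouse, held 60.5 CPM of Nr1h3 against 16.8 in all other barcodes. The rich level was the higher one in each mouse, at 121.5 against 19.7 CPM in DEP 11, 40.3 against 12.2 in DEP 13, 61.9 against 17.7 in PBS 2 and 26.0 against 15.9 in PBS 3. The same barcodes held 277.6 CPM of Il1rn, the interleukin-1 receptor antagonist, against 64.5, also higher in each mouse. Their median depth was 7643 UMIs against 5796.5, and their Apoe level was 21034 CPM against 27853.

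The 40 barcodes with 3 or more Lpl UMIs resembled them in part, with 53.0 CPM of Nr1h3 against 17.7, 356.2 CPM of Plin2 against 202.2 and 176.6 CPM of Fabp5 against 92.6. Cd36, a scavenger receptor for fatty acids and oxidized lipoproteins, stood at 94.2 CPM against 19.9. Pooled over the mice, as the Lpl-rich barcodes were, the 45 barcodes with 3 or more Apoc1 UMIs were different in composition. They held 2 UMIs of Nr1h3 (6.69 CPM against 18.2), 401.6 CPM of Ly6c2 against 200.2 and 304.6 CPM of Plin2 against 202.9, and 22.2% of them reached the C1qa limit of 20 against 59.8% of the rest.

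Exposure to diesel exhaust particles was compared over 2 against 2 mice. None of the 9 members tested in all barcodes passed in edgeR, where 0.0% of the 6609 genes tested passed, 171 genes had an unadjusted p under 0.05, none of them a member, and DESeq2 called 4 genes, none of them a member. The 9 log2 differences had a median of −0.06, against −0.01 over all genes. In the classes, where 0.0% of genes passed in edgeR as well, no member was called in Ly6c2-high or C1qa-high barcodes at either limit by edgeR or DESeq2. Of 17 genes induced by tissue dissociation, such as Fos and Hspa1a, none passed in edgeR in all barcodes or in either class. Their summed level in all barcodes was 13448 and 11409 CPM after DEP and 16865 and 14147 after PBS. The groups did not overlap in this level, as in 26.6% of the genes tested in all barcodes. The part of these genes in the members' differences was not tested.

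Abca1 and Abcg1 were the members whose DEP and PBS mice did not overlap in all barcodes. Abca1 stood at 28.9 and 34.7 CPM in DEP 11 and DEP 13 and at 23.5 and 26.4 in PBS 2 and PBS 3, a difference of 0.35 ± 0.20 on the log2 scale (adjusted p = 0.997). Abcg1 stood at 24.3 and 18.8 against 16.9 and 18.2 CPM, a difference of 0.31 ± 0.19 (adjusted p = 0.997). Both kept this order in C1qa-high barcodes, with differences of 0.41 ± 0.20 and 0.37 ± 0.20 (adjusted p = 1). Groups of 2 mice that do not overlap were found in 26.6% of all genes tested in all barcodes and in 28.5% in C1qa-high barcodes (29.8% at the limit of 20), so 2 of 9 members is no more than the background.

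In barcodes under 500 UMIs Abca1 had the same order, with 91.6 and 80.7 CPM after DEP (15 and 5 UMIs) and 49.3 and 40.3 after PBS (6 and 5 UMIs). Its part in the difference between exposures was not tested.

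Apoe stood at 27971 and 25227 CPM after DEP and at 31738 and 24246 after PBS, a difference of −0.06 ± 0.14 with an interval of 2 SE from −0.35 to 0.22. For Pltp the levels were 292.3 and 253.8 against 355.4 and 220.3 CPM (−0.06 ± 0.21), and for Nr1h3 21.8 and 13.3 against 19.5 and 16.1 CPM (0.01 ± 0.23). For Apoe and Pltp 1 PBS mouse lay above and 1 below both DEP mice, for Nr1h3 both PBS mice lay between them, and the difference of the groups was smaller than its SE.

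Apoc1 had 14.2 and 21.3 CPM after DEP and 28.3 and 12.5 after PBS (−0.20 ± 0.37), and Lpl 16 and 16.3 against 16 and 23.1 CPM (−0.28 ± 0.25). Fabp5 had 79.6 and 100.1 against 115.7 and 78.0 CPM (−0.10 ± 0.21), and Plin2 181.8 and 209.8 against 180.2 and 242.7 CPM (−0.11 ± 0.21). The adjusted p was 0.997 for each of these 7 genes.

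**Figure D5:**
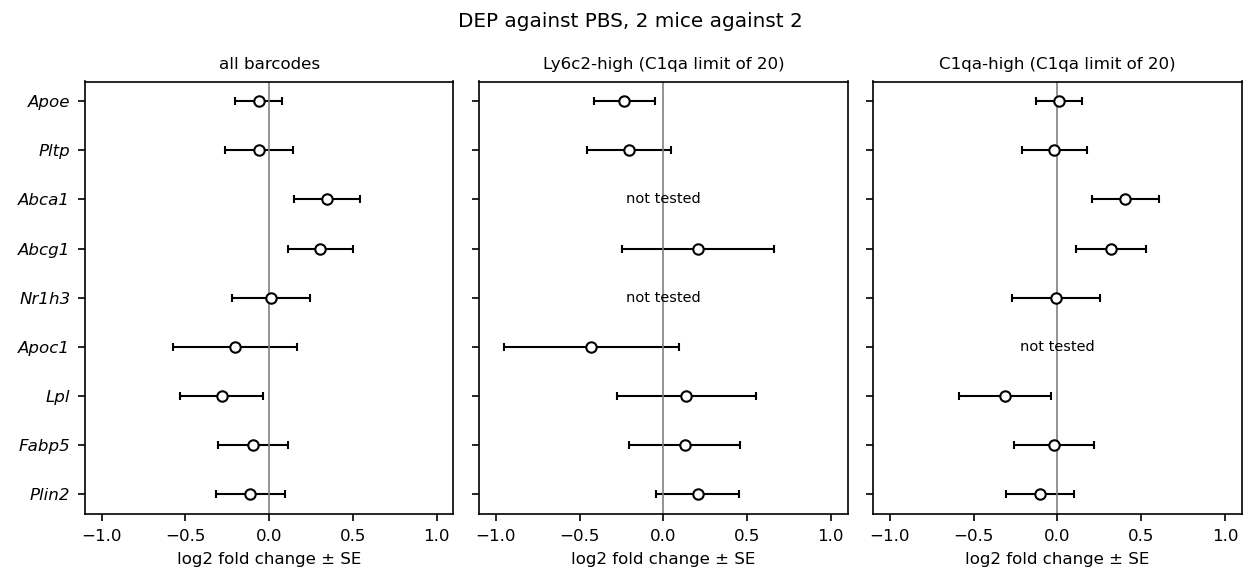
Log2 fold change (x axis, points, with SE as bars) of DEP against PBS mice, 2 against 2, for 9 members in all barcodes (left) and in Ly6c2-high (middle) and C1qa-high barcodes (right) at the C1qa limit of 20; members that failed the filter on low genes are marked as not tested. All points are open, since none passes an FDR of 5%, and Abca1 (0.35) and Abcg1 (0.31) lie highest in the left panel.

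In Ly6c2-high barcodes at the limit of 5, Fabp5 was the 1 member with an unadjusted p under 0.05. Its levels there were 62.1 and 330.9 CPM after DEP and 57.9 and 57.4 after PBS, a difference of 1.5 ± 0.69 (unadjusted p = 0.0414, adjusted p = 0.992), and the single barcode of DEP 13 described above decided the value. With the limit of 20 it was 0.13 ± 0.33. Groups that did not overlap, as for Fabp5, were found in 32.2% of genes in that class, and in 27.2% at the limit of 20, where none of the 7 members tested was among them. Apoc2, Abca1 and Nr1h3 failed the filter on low genes there, and on few UMIs their groups did not overlap. Abca1 had 7.90 and 13.5 CPM after DEP and 4.38 and 4.62 after PBS, and Nr1h3 10.5 and 10.8 against 5.48 and 3.46.

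The difference of the exposure effect between C1qa-high and Ly6c2-high barcodes was tested as an interaction, which 0.0891% of 6735 genes passed, and no member was called. At the limit of 20, where 0.145% passed, Apoe had the smallest p of the members. Its exposure effect was −0.23 ± 0.18 in Ly6c2-high and 0.01 ± 0.14 in C1qa-high barcodes, and the difference of 0.27 ± 0.07 had an unadjusted p of 0.000989 and an adjusted p of 0.37. Without the barcodes that carried lymphoid markers the adjusted p was 0.0713, and without DEP 11 the difference was 0.36 with an adjusted p of 0.000777, so 1 mouse decided on which side of the threshold it fell. The Ly6c2-high Apoe level was close to that of barcodes under 500 UMIs, as given above, and their part in this difference was not tested.

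The share of C1qa-high barcodes among the 3 classes with a high marker was 84.0%, 88.8%, 84.5% and 87.7% in the 4 mice. The groups overlapped, and the means of 86.4% ± 3.37 and 86.1% ± 2.21 (SD, n = 2) differed by 0.287 points (exact two-sided permutation test, p = 1, the smallest possible p being 0.333).

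Other genes of lipid handling, taken from fixed lists, were counted in the C1qa-high against Ly6c2-high comparison. In that comparison 13.5% of all genes passed at the limit of 5 and 33.0% at the limit of 20, and each list's count is to be read against these shares. Of 12 tested LXR partners and further targets, 1 passed at the limit of 5, lower, and 7 at the limit of 20, 5 higher and 2 lower, with a list median of 0.17 against 0.02 over all genes. Mertk, a receptor for dying cells, rose by 2.68 ± 0.44 and Mylip, an E3 ubiquitin ligase, by 1.49 ± 0.27, while Smpdl3a, a phosphodiesterase gene, fell by 2.06 on the log2 scale (SE 0.08). The Smpdl3a levels at the limit of 20 were 359.4, 248.7, 378.9 and 262.1 CPM in Ly6c2-high and 89.2, 63.6, 86.0 and 71.7 in C1qa-high barcodes, and the same gene passed at the limit of 5 (−1.60 ± 0.15).

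Of 19 tested genes of cholesterol synthesis and its control, none passed at the limit of 5 in edgeR (2 with an unadjusted p under 0.05) or DESeq2, and 6 passed at the limit of 20, 1 higher and 5 lower, a share close to that of all genes. Mvd, a decarboxylase of the mevalonate pathway, fell by 0.72 on the log2 scale (SE 0.19), while Pmvk, a kinase of the same pathway, rose by 0.59 ± 0.17. The list median was −0.34, against 0.02 over all genes.

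Of the lipid uptake genes, 4 of 9 passed at the limit of 5, 1 higher and 3 lower, and 8 of 10 at the limit of 20, 5 higher and 3 lower. Cd36 had no UMI in any Ly6c2-high barcode at the limit of 5 and was at least 4.08-fold higher in C1qa-high barcodes, taking 3 counts over the group as the floor, and it rose by 1.84 ± 0.26 at the limit of 20. Trem2, a lipid-sensing receptor, rose by 0.59 ± 0.10, and Scarb1, the high-density lipoprotein receptor, fell by 1.07 on the log2 scale (SE 0.14).

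All lysosomal lipid genes that passed were higher, 2 of 13 at the limit of 5 and 6 of 13 at the limit of 20, against 7.32% and 16% of all genes that were higher, with Asah1, the acid ceramidase, at 0.57 ± 0.08 and Scarb2, the lysosomal membrane protein LIMP-2, at 0.68 ± 0.13. Of 9 droplet and neutral lipid genes none passed at the limit of 5 in edgeR (2 with an unadjusted p under 0.05) or DESeq2, and 2 passed at the limit of 20, namely Dgat2, a triglyceride synthase, higher (1.21 ± 0.30) and Soat1, the cholesterol esterifying enzyme, lower (−0.35 ± 0.13). None of 3 tested lipase regulators passed at either limit in edgeR or DESeq2, and none had an unadjusted p under 0.05. Of 17 genes induced by tissue dissociation, 6 passed at the limit of 5 and 10 at the limit of 20, 4 of them higher at each, and their part in the members' differences was not tested. No gene of the 6 lipid lists passed between DEP and PBS mice in edgeR or DESeq2, in all barcodes or in either class; in all barcodes 1 of them, a cholesterol synthesis gene, had an unadjusted p under 0.05.

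Over the 16 sums of 4 classes in 4 mice, the genes most like Apoe in log2 level were Lgmn (Pearson r = 0.974), C1qc (0.968) and Itm2b (0.961), and those most like Pltp were H2-Eb1 (0.967), H2-Ab1 (0.961) and Lgmn (0.961). Lgmn is a lysosomal protease and H2-Eb1 and H2-Ab1 are MHC class II chains. For Abca1 they were Nagk (0.922), Plekha1 (0.896) and Atraid (0.893), for Nr1h3 Mzt2 (0.946), Mtif3 (0.932) and Stbd1 (0.932), and for Apoc1 Vps37b (0.920), Mknk2 (0.899) and a gene listed by its Ensembl identifier only. The nearest genes of Abcg1, Lpl, Fabp5 and Plin2 were Josd2 (0.928), Cryzl1 (0.940), Eml4 (0.871) and Golga7 (0.853). Sums of 1 mouse share a library, small classes give noisy sums, and r is a description only. With the limit of 20 Lgmn was again the gene most like Apoe (0.985), while the 3 genes nearest each of the 8 other members named here, Pltp included, were other ones.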

How the data were processed

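The authors sorted colon lamina propria cells of 4 mice, made 1 10x Genomics 3′ v2 library per mouse and deposited whole-number UMI counts per gene and barcode. The submitters' processing notes name Cell Ranger, STAR 2.6.1a, R 3.5.1 and the mm10 genome. A UMI counts a molecule once, so PCR copies do not add to it, and reads from free RNA stay in. From the deposited counts, barcodes with at least 1000 UMIs were kept (median 5838 UMIs), classed by Ly6c2 and C1qa, and summed per mouse and class, since barcodes of 1 mouse are not replicates. Gene symbols and positions came from GENCODE M21 (28339 of 28692 genes), and promoters from RefSeq.

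Sums were tested with edgeR 4.0.16 (quasi-likelihood F test, TMM scaling, genes over 1 CPM in at least 2 sums with a UMI in at least 5% of barcodes, Benjamini-Hochberg FDR of 5% over all genes tested), with the mouse as a block between classes, which come from the same animal. SE is the log2 fold change divided by the square root of F, and Ly6c2 and C1qa were left out of tests between classes. DESeq2 1.42.0, other limits, filters, depths and left-out mice were alternatives, and 64 barcodes called doublets by Scrublet (scanpy 1.11.5) were kept in. Fits were tested on simulated counts in which 200 genes changed by 2 on the log2 scale, at a fixed dispersion. Between exposures in all barcodes 100% of these were recovered, with 4.76% false among the calls. Between C1qa-high and Ly6c2-high barcodes 76% were recovered at the limit of 5, with 6.17% false, above the FDR of 5%. At the limit of 20 these values were 98.5% and 1.5%. All members are named. The 3 genes nearest each member were picked by Pearson correlation, and from each other list up to 2 genes in each direction that passed (1 such gene is not reported here), and Apoc4 and Il1rn were named after their values were seen. The members, lists and classes were chosen with earlier results of these data known.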

Additional observations from a re-analysis of the deposited data

How the results depend on the processing

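Of the members' own values under the alternatives, 1057 kept their side of the threshold, 18 lost a call and 15 gained one. These include the exposure and interaction fits, where no member was called as first fitted, so the total says little about stability. At the C1qa limit of 20 Apoe, Pltp, Abca1 and Nr1h3 were called between C1qa-high and Ly6c2-high barcodes in every alternative run. Apoc1 was called there in every alternative run in which it passed the filter, which it failed without called doublets. With the mouse left unblocked at the limit of 5, Nr1h3 (adjusted p = 0.0619) and Apoc1 (0.092) were lost, and with the limit of 2 for both markers so were they (0.988 and 0.555); Nr1h3 was also lost with DESeq2 (0.0538). Thinning to 1000 UMIs left 4 members to test, of which Apoe and Pltp were called (1.5 and 1.39). At the limit of 20 DESeq2 lost Lpl (0.0932) and Plin2 (0.0641). Where a mouse was left out of a comparison of 2 groups, the lone mouse of its group was assumed to vary like the others. Without DEP 11 the difference of Fabp5 between DEP and PBS in Ly6c2-high barcodes was 2.51, and that in the interaction was −2.61. DEP 13 was then the only DEP mouse, and 1 of its barcodes held 24 of its 33 Fabp5 UMIs in the Ly6c2-high class at the limit of 5. The cause of these changes was not tested. The median difference of all genes between classes shifted from 0.10 to 0.62 with no filter on low genes and to 0.29 with the limit of 2.

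No paired analysis was possible because the DEP and PBS mice share no replicate number. Between classes the mouse is the block, and without a block in that pairing of classes within a mouse the calls numbered 607 between C1qa-high and Ly6c2-high, 14 between double-high and Ly6c2-high and 1024 between C1qa-high and double-high barcodes.

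Counts of genes called between DEP and PBS, none in edgeR as first fitted, were as follows. In all barcodes they were 4 with DESeq2, 119 with no filter and 7 to 35 with 1 mouse left out. In Ly6c2-high barcodes they were 12 with no filter, 4 with at least 2000 UMIs, 3 with the limit of 10, 6 to 13 with 1 mouse left out, and, at the C1qa limit of 20, 4 without lymphoid barcodes and 0 to 13 with 1 mouse left out. In C1qa-high barcodes they were 6 with DESeq2, 124 with no filter, 1 without lymphoid barcodes, 4 to 28 with 1 mouse left out, and, at the limit of 20, 5 with DESeq2, 3 without lymphoid barcodes and 18 to 34 with 1 mouse left out (22 without DEP 13).

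Between C1qa-high and Ly6c2-high barcodes the 900 calls became 255 when thinned, 450 with the limit of 2, 589 to 792 with 1 mouse left out, and, at the C1qa limit of 20, 2272, then 1623 with DESeq2, 2282 without lymphoid barcodes, 2285 without doublets and 1767 to 2117 with 1 mouse left out (1949 without PBS 2 and 1892 without PBS 3). Between double-high and Ly6c2-high barcodes the 53 calls became 118 with no filter, 9 when thinned, 13 without lymphoid barcodes, 6 with the limit of 10 and 34 to 52 with 1 mouse left out. Between C1qa-high and double-high barcodes the 1570 calls became 423 when thinned, 666 with the limit of 10 and 1166 to 1426 with 1 mouse left out. For the interaction the 6 calls became 0 with DESeq2, 10 with at least 2000 UMIs, 3 without lymphoid barcodes, 2 with the limit of 2, 0 to 8 with 1 mouse left out, and, at the limit of 20, 10, then 0 with DESeq2, 15 without lymphoid barcodes, 12 without doublets and 8 to 21 with 1 mouse left out. The difference in the share of C1qa-high barcodes turned to −0.0523 points under the study's filter on barcodes and −0.289 with at least 2000 UMIs, was 2.82 with the limit of 2, 1.79 when thinned and 0.945 with the C1qa limit of 20, and ran from −2.10 to 2.67 with 1 mouse left out.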
